A study of Mus musculus with 12 samples.

Results

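Macrophages of the neonatal mouse meninges that carry Timd4 are described here as 1917 single cells, out of 16272 macrophages and 21689 kept cells of all kinds. A cell counted as a macrophage when its summed counts of Mrc1, Cd163, F13a1, Cbr2 and Pf4 reached at least 10 unique molecular identifiers (UMIs, each marking 1 captured RNA molecule) and exceeded the sum of the microglial genes Sparc, P2ry12, Tmem119 and Sall1. It counted as Timd4 positive when it held at least 2 Timd4 UMIs. The positive cells were 11.8% of the macrophages and 8.84% of the kept cells. Another 2145 macrophages held 1 Timd4 UMI, just outside the threshold, and 818 of the 1917 members held exactly 2, just inside it. The 12210 macrophages with no Timd4 UMI, called Timd4 0 cells below, are the cells they are compared with.

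The cells came from meninges of C57Bl/6j mice at postnatal day 4, either naive or taken 6 h after neonatal hypoxia-ischemia (HI), which injures the brain by cutting both blood flow and oxygen supply. There were 2 naive and 2 HI gene expression libraries, made with a droplet 5' kit, and each pooled 12 pups, 6 male and 6 female. No sham group is among the samples, so surgery and handling cannot be told apart from HI. The design text gives 2 runs, each with an HI and a naive library. The labels do not tie library numbers to runs, so the main HI tests have no run term. They also do not say how the 2 pools of a group relate in litter or day. The p-values thus measure only the spread between these libraries, which may be technical.

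Timd4 encodes TIM-4, a surface receptor that binds phosphatidylserine on dying cells and tethers them for uptake. In many tissues it marks long-lived resident macrophages that maintain themselves locally with little input from blood monocytes, and these cells often also carry the folate receptor gene Folr2 and the hyaluronan receptor gene Lyve1. In the meninges such cells belong to the border-associated macrophages, which line the vessels and membranes around the brain.

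The stretches before the start sites of Timd4 and Folr2 are shown first, because Folr2 was among the genes most like Timd4 across cells and both stretches held the same motif. They are the 250 bases upstream of the RefSeq start in GRCm38.p6, read 5′ to 3′ on the gene's strand, and the capitals mark the letters of a composite ETS and IRF element (GGAA, any pair of bases, then GAAA), a kind of site bound in myeloid cells by PU.1 together with an IRF protein.
Timd4 promoter, plus strand, chr11:46810549-46810798: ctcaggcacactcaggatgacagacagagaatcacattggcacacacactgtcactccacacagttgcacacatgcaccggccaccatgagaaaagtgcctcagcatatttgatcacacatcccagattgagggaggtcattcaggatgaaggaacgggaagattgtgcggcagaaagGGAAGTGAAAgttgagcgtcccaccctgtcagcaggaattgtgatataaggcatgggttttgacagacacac
Folr2 promoter, minus strand, chr7:101857191-101857440: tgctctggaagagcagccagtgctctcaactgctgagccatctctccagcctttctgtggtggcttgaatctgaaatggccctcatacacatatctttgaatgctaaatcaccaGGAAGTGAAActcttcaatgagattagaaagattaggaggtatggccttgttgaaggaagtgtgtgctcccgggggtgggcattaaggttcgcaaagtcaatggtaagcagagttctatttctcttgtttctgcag
Both carried it as GGAAGTGAAA on the gene's own strand, at bases -72 to -63 of Timd4 and -136 to -127 of Folr2, where -1 is the base before the start. Of all 32851 RefSeq mouse promoters, 2.30% held the motif on either strand in the same 250 bases. Of 6 genes looked up (Timd4, Folr2, Slc9a3r2, Pltp, Fcna and Lyve1), 5 were matched with 7 starts in all. The letters were not found in the windows of Slc9a3r2, Pltp and Fcna or of the second Folr2 start. The motifs GAGGAAGT and TGCTGA were searched too. GAGGAAGT was found in none of these windows. TGCTGA was found in those of Timd4, both Folr2 starts and Fcna, and in 16.1% of all promoters on either strand. The motif shown was picked after this search, so its share of 2.30% is no test. A match describes letters and does not show binding.

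The 4 libraries held 4213 to 6421 barcodes and 51986763 to 68543046 UMIs. Timd4 positive cells had medians of 12635.5 to 14461.5 UMIs per library, and Timd4 0 cells had 9602.5 to 10702. Each positive cell was therefore paired with a Timd4 0 cell of its own library and of like depth, which was possible for all 1917. Median mitochondrial shares were 2.37% to 2.60% in positive cells and 2.39% to 2.65% in the paired cells. Any 2 libraries shared 29 to 55 barcodes, and 0 members had a barcode that was also a member in another library. A productive B-cell receptor contig was attached to 3 members and a T-cell receptor contig to 1.

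The label was compared with cell type markers, in part by genes the rule itself used. Border-associated macrophage genes summed to 18470 to 20242 CPM (UMIs scaled to a common total in every sum) in the positive cells, against 15509 to 17516 CPM in the paired cells. All 4 chosen markers were present, with summed levels of 1851 to 2075 CPM. The gate and the Timd4 threshold set much of these sums, since 5 of the 9 border-associated genes are gate genes and Timd4 is a chosen marker, so they do not test the label. The 4 border-associated genes outside the gate were split. In positive cells edgeR called Lyve1 and Clec10a higher and Stab1 and Ms4a7 lower. Neutrophil markers summed to 3.30 to 30.2 CPM and classical monocyte markers to 7.22 to 33.2 CPM, against 96.2 to 3121 and 90.2 to 181.7 CPM in the paired cells. Microglial markers summed to 730.2 to 1005 CPM against 1343 to 1932 CPM in the paired cells, and none of those 8 genes was at 0. The 4 of them that are no gate genes were all called lower in positive cells by edgeR, and their part in the differences between the classes was not tested. Ncr1, Fcer1a and Hba-a2 were at 0 UMIs in all positive cells.

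Timd4 positive cells were a smaller share of macrophages in both HI libraries than in both naive libraries. They made up 15.9% of macrophages in naive 1 (588 of 3696, exact 95% binomial interval 14.7% to 17.1%) and 13.6% in naive 2 (613 of 4492, 12.7% to 14.7%). They made up 11.4% in HI 1 (360 of 3161, 10.3% to 12.5%) and 7.23% in HI 2 (356 of 4923, 6.52% to 7.99%). The naive mean was 14.8% ± 1.60 and the HI mean 9.31% ± 2.94 (SD, n = 2 each), a difference of -5.47 percentage points. The ranges did not overlap, and the 2-sided exact permutation test gave p = 0.33, the smallest that 2 against 2 libraries allow. After each macrophage was thinned to 3000 UMIs, the share with at least 2 Timd4 UMIs was 3.37% ± 0.170 in naive and 1.72% ± 0.338 in HI libraries.

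**Figure D1:**
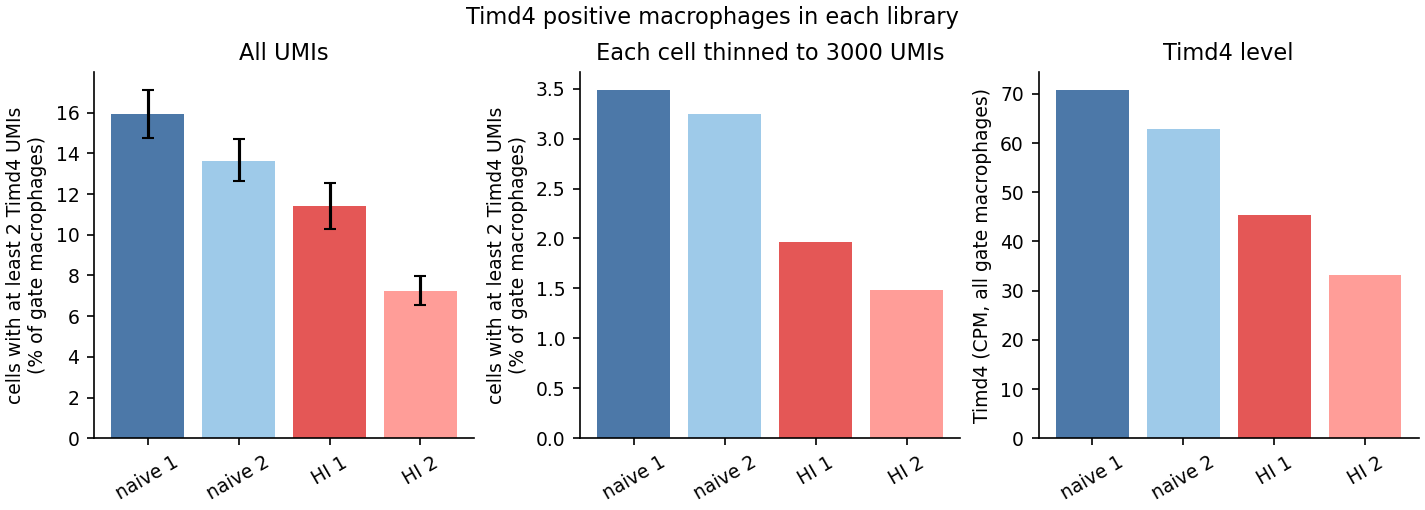
Bars give, for each library, the share of macrophages with at least 2 Timd4 UMIs (left, with exact 95% binomial intervals for counting error), the same after thinning each cell to 3000 UMIs (middle) and the Timd4 level over all macrophages in CPM (right). Both HI libraries lie below both naive libraries in each panel, and HI 2 is lowest at 7.23%.

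Timd4 itself was lower after HI when summed over all macrophages whatever their count. It stood at 70.9 and 62.8 CPM in the naive libraries and at 45.4 and 33.2 CPM in the HI libraries. The log2 change was -0.75 ± 0.136 (SE, edgeR adjusted p = 0.0472), in a test of 13610 genes of which 3.14% were called, 1.95% higher and 1.2% lower. The call was lost without naive 1 (log2 change -0.66, edgeR adjusted p = 0.321) and without naive 2 (-0.83, edgeR adjusted p = 0.239), while the direction held in both. Fewer Timd4 positive cells and less Timd4 RNA per cell cannot be told apart by these values. Among the members, whose lowest count the rule fixes, the level went from 301.3 and 294.5 CPM to 248.1 and 252.8 CPM. The share of members with at least 5 Timd4 UMIs was 32.8% and 24.1% in naive and 24.4% and 19.7% in HI libraries.

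Microglia, taken to lack Timd4, gave a background level. Whether their Timd4 UMIs came from free RNA, from doublets or from the cells themselves was not tested. Among cells with at least 10 UMIs of the 4 microglial genes and more of them than of the macrophage genes, 0.554% and 0.356% of the naive cells and 0.195% of the HI 1 cells had at least 2 Timd4 UMIs. In HI 2 the number was 0 of 656 cells, which allows a share of up to 0.457%. Those cells had median depths of 10958.5 to 12949 UMIs, against 10019 to 11387 for the macrophages.

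The chosen marker genes were graded with Timd4 on both sides of the threshold. The values are a description, since the cells are sorted by Timd4. Folr2 averaged 364.4 CPM over the 4 libraries in cells with no Timd4 UMI, 789.2 in cells with 2 and 1613 in cells with at least 5, where the libraries ranged from 1475 to 1684. Slc9a3r2, which encodes a scaffold protein that links membrane proteins to the cytoskeleton, went from 10.1 to 25.4 and 124.4 CPM. Pltp, the phospholipid transfer protein, went from 249.3 to 392.8 and 774.1 CPM. In each of these genes all 4 libraries of the highest class lay above all 4 of the lowest.

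Other resident macrophage genes followed Timd4 or ran against it. Fcna, a ficolin that recognises sugars on microbes and dying cells, went from 679.1 CPM at no Timd4 UMI to 4181 CPM at 5 or more. Lyve1 went from 1968 to 3673 CPM and the gate gene Cbr2 from 626.0 to 1800 CPM. The mannose receptor gene Mrc1, also part of the gate, went down along the same cells from 3204 to 1882 CPM. Igf1, a growth factor, went from 423.4 to 191.9 CPM. Apoe, which carries lipids out of the cell, stood at 16716 and 18694 CPM at the ends of the scale. Mki67, a marker of dividing cells, averaged 44.4 CPM at no Timd4 UMI and 27.2 CPM at 5 or more, with overlapping ranges of 35.8 to 51.6 and 13.4 to 39.0 CPM.

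**Figure D2:**
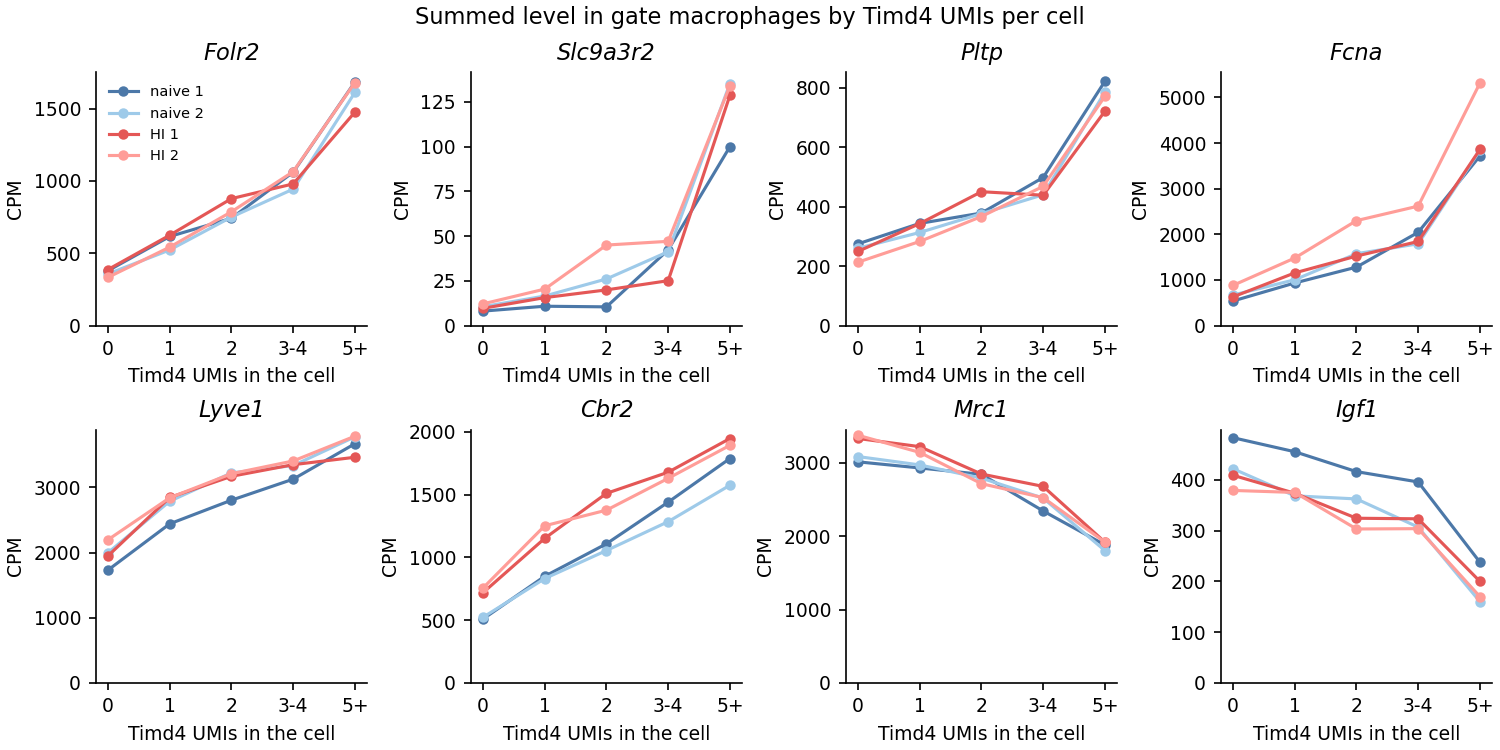
Each panel plots 1 gene's summed level in CPM (vertical axis, from 0) in macrophages grouped by their Timd4 UMIs (horizontal axis), with 1 line per library. Folr2, Slc9a3r2, Pltp, Fcna, Lyve1 and Cbr2 are higher at 5 or more UMIs than at 0 in all 4 libraries, with 1 small dip on the way for Slc9a3r2 in naive 1 and for Pltp in HI 1, and Mrc1 and Igf1 are lowest in cells with at least 5 Timd4 UMIs.

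The genes most like Timd4 across single macrophages were found among 3933 genes detected in at least 10% of macrophages, by Spearman correlation over cells thinned to 3000 UMIs. The mean of the 4 libraries was highest for Crip1 (0.26), Fcna (0.26), Folr2 (0.24), Wfdc17 (0.22), Ccl6 (0.21), Ifitm3 (0.20) and Cbr2 (0.20), followed by Emp3, Alox5ap and Ccl9. These are weak correlations in sparse counts from cells that share a library, and they describe an order of genes and nothing more.

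In thinned cells, Lyve1 was detected in 97.8% of positive cells and 86.7% of paired Timd4 0 cells, Folr2 in 86.3% and 55.4%, and Fcna in 91.5% and 66.6% (means of 4 libraries). Without thinning the shares were 99.2% and 93.3% for Lyve1, 97.9% and 83.5% for Folr2, and 98.5% and 88.9% for Fcna. After thinning, MHC class II genes reached 3 UMIs in 1 and 4 positive cells of naive 1 and naive 2 and in 0 of each HI library. In paired cells the numbers were 8 and 5 in naive 1 and naive 2 and 2 and 1 in HI 1 and HI 2, so such cells were rare in both classes.

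The next comparison asked what else sets Timd4 positive cells apart from Timd4 0 cells of the same depth in the same library. Among the higher genes were Wfdc17, Ccl6, Fcna and Ifitm3 and the transcription factor genes Klf2 and Klf4. Among the lower genes were Ccr2, Cd9, Igf1 and most tested members of a list of MHC class II and monocyte genes. Of 10944 genes tested, 1519 differed (13.9% called by edgeR with a library term), 824 higher (7.53%) and 695 lower (6.35%) in positive cells. Timd4, its 3 chosen markers and the 9 gate genes were left out of the calls. Across all tested genes the median log2 difference was -0.0033.

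Wfdc17, a small secreted protein of activated macrophages, stood at 437.7, 296.7, 518.8 and 400.6 CPM in positive cells of naive 1, naive 2, HI 1 and HI 2. In the paired cells of the same libraries it stood at 59.7, 33.3, 83.7 and 118.1 CPM. It was higher in 4 of 4 libraries, by 2.63 ± 0.152 on the log2 scale (SE, edgeR adjusted p = 1.328e-07). The chemokine gene Ccl6 averaged 720.0 ± 183.8 against 164.1 ± 74.7 CPM (SD, n = 4 libraries), a log2 difference of 2.24. Its relative Ccl9 averaged 379.8 ± 68.7 against 141.3 ± 63.4 CPM.

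Fcna averaged 2458 ± 376 CPM in positive and 706.9 ± 159.5 CPM in paired cells, a log2 difference of 1.85 ± 0.0640 (edgeR adjusted p = 1.650e-09). Ifitm3, which blocks entry of viruses at the endosome, averaged 962.1 against 306.3 CPM. Crip1, a small LIM domain protein, averaged 854.1 ± 61.3 against 211.0 ± 66.3 CPM. Adgre5, which encodes the adhesion receptor CD97, averaged 70.7 against 12.2 CPM, and Nupr1, a stress-induced regulator, 131.1 against 47.2 CPM. In each of these genes the positive cells were higher in all 4 libraries. Mlxipl, which encodes the glucose-sensing factor ChREBP, averaged 21.3 ± 4.48 against 3.05 ± 0.493 CPM, and Emp1, a membrane protein, 20.4 ± 9.25 against 4.87 ± 2.44 CPM.

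Retnla, a secreted protein of alternatively activated macrophages, also passed, at 308.2 ± 351.6 against 64.1 ± 60.8 CPM. Few cells held its UMIs: 12 to 18 positive cells per library carried any, and 5 cells held 70.9% to 99.8% of them. With each gene's highest 1% of cells removed from every sum, a setting chosen after seeing the data, Retnla was too low to test, and the other 10 genes of these paragraphs stayed called.

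**Figure D3:**
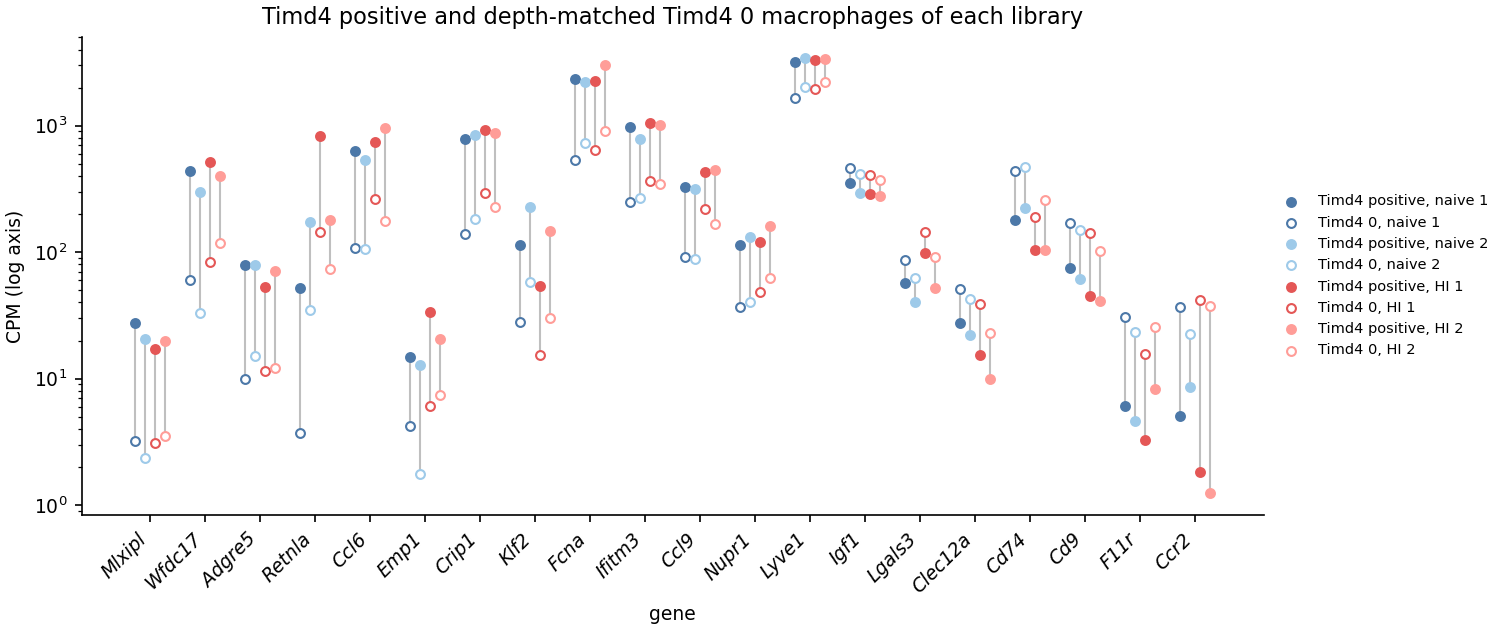
Each pair of points is 1 library, with the level of a gene in CPM (log axis) in Timd4 positive cells (filled) and in depth-matched Timd4 0 cells (open). Filled points lie above open ones in all 4 libraries for the genes from Mlxipl to Lyve1 and below them from Igf1 to Ccr2.

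Among macrophage transcription factor genes, 8 of 28 tested were higher and 5 lower, with a median log2 difference of 0.04. Klf2, which restrains inflammation and is induced by flow and by dying cells, stood at 114.4, 225.7, 54.0 and 146.3 CPM in positive cells and at 28.0, 57.9, 15.3 and 29.9 CPM in the paired cells of naive 1, naive 2, HI 1 and HI 2. It varied between libraries in both classes, and the ratio within a library kept to a log2 difference of 2.07 ± 0.0583 (edgeR adjusted p = 3.570e-10). Klf4 averaged 30.9 against 14.2 CPM. Id2 was lower, at 24.1 against 46.3 CPM.

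Of 26 tested genes of a resident macrophage list (Timd4, Lyve1 and Folr2 type cells), 15 were higher and 5 lower, with a median log2 difference of 0.21. The list was drawn up with results of these cells known, so its direction is not independent. Lyve1 averaged 3322 ± 93.8 against 1967 ± 234 CPM and Ednrb, the endothelin B receptor, 824.8 ± 106.7 against 524.7 ± 51.6 CPM. Lower members were Igf1 (302.1 against 414.5 CPM), Hpgd, Clec4n, Stab1 and Cd209d. Of 21 scavenger and C-type lectin receptors, 9 were higher and 7 lower. This list shares called members with the resident list, among them Lyve1, Mgl2, Marco, Stab1 and Clec4n, so the counts are not separate results. Few cells held Marco, which was called higher: 0.53% of positive and 0.60% of paired cells had a UMI of it (means of 4 libraries). Clec10a, a galactose-binding lectin, averaged 350.7 against 211.5 CPM.

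Of 24 tested genes of apoptotic cell uptake, the process TIM-4 serves, 5 were higher and 8 lower, with a median of -0.02. The higher ones were the complement genes C1qa, C1qb and C1qc, the bridging protein gene Pros1 and Dock2. C1qb averaged 6522 ± 686 against 5726 ± 897 CPM and Pros1 99.3 ± 4.33 against 82.0 ± 4.18 CPM. Among the lower ones, Itgb5, an integrin subunit for bridged cells, averaged 32.2 ± 3.78 against 49.1 ± 9.40 CPM. Of 24 genes of the LXR and lipid transport list 3 were higher and 6 lower. The lower ones included the cholesterol exporter gene Abca1 (238.3 against 291.6 CPM) and Mylip (57.7 against 79.5 CPM), which encodes a ligase that removes the LDL receptor.

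Of 19 tested MHC class II and monocyte genes, 17 were lower and 1, Lsp1, was higher, with a median of -1.34. Cd9, a tetraspanin, averaged 55.7 ± 15.7 against 140.5 ± 28.4 CPM. Cd74, the MHC class II invariant chain, averaged 153.5 ± 59.6 against 339.9 ± 137.4 CPM, and 5 paired cells held 64.5%, 76.6%, 45.3% and 69.1% of its UMIs in naive 1, naive 2, HI 1 and HI 2. The share of cells with a Cd74 UMI did not follow the sums: it was 53.2% of positive and 48.1% of paired cells, and 21.6% and 19.9% after thinning. Along the Timd4 scale of all macrophages, Cd74 ran both ways. At 5 or more Timd4 UMIs it stood at 359.5 and 331.4 CPM in naive 1 and naive 2, against 221.8 and 246.4 CPM at 0. In HI 1 and HI 2 it stood at 94.3 and 152.9 CPM against 214.4 and 187.6 CPM. Ccr2, the receptor that brings monocytes out of the blood, stood at 5.05, 8.58, 1.82 and 1.24 CPM in positive cells of naive 1, naive 2, HI 1 and HI 2 and at 36.8, 22.5, 42.0 and 37.4 CPM in the paired cells. The classes did not overlap, and the log2 difference was -2.77 ± 0.316 (edgeR adjusted p = 5.491e-05). Few cells held Ccr2: 1.39% of positive and 4.00% of paired cells had a UMI of it (means of 4 libraries). In the paired cells 5 cells held 45.9% to 80.1% of its UMIs per library. With each gene's highest 1% of cells removed, 10 of 13 tested members were lower, and the log2 difference of Cd74 was -0.23 in place of -1.10.

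Of 25 cell cycle genes, 14 were lower and 4 higher, with a median of -0.60. The lower ones act in mitosis: Cenpa, a centromere histone, averaged 71.5 ± 12.2 against 109.9 ± 25.0 CPM and Plk1, a mitotic kinase, 14.9 against 25.3 CPM. The 4 higher ones, Mcm2, Mcm3, Mcm5 and Mcm6, encode the helicase loaded before DNA is copied, and Mcm6 averaged 89.7 ± 16.7 against 66.1 ± 6.95 CPM. The matching for depth changed this count: against all Timd4 0 cells 2 were lower and 7 higher and the median was -0.02. After thinning, cells with at least 3 UMIs of the list were 14.3%, 19.4%, 14.2% and 17.1% of positive cells of naive 1, naive 2, HI 1 and HI 2. In paired cells the shares were 21.4%, 20.7%, 18.1% and 16.6%, so HI 2 ran the other way.

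Of 22 tested type I interferon genes 8 were higher and 0 lower, with a median of 0.28. Without HI 1 the count was 3 higher and 1 lower, and DESeq2 called 2 higher. Irf7, the factor that amplifies the interferon response, stood at 57.7, 52.0, 90.8 and 77.8 CPM in positive cells of naive 1, naive 2, HI 1 and HI 2 and at 45.7, 44.1, 44.0 and 51.2 CPM in the paired cells. In the HI libraries 5 positive cells held 35.7% and 35.5% of the Irf7 UMIs. Ifi204, a DNA sensor, averaged 54.9 ± 4.51 against 43.8 ± 2.03 CPM. Of 17 haem and iron genes 1 was higher and 6 lower. Hmox1, which breaks down haem, averaged 717.6 ± 218.3 against 993.9 ± 177.0 CPM, and 5 paired cells held 23.2% to 34.0% of its UMIs. After thinning, Hmox1 was detected in 74.0% of positive and 67.9% of paired cells, opposite in direction to the sums. The iron exporter gene Slc40a1 averaged 459.7 against 564.9 CPM. Of 15 phagocyte remodelling genes 3 were higher and 8 lower, led by the lysosomal protease gene Ctsd at 1769 ± 83.0 against 2234 ± 64.2 CPM.

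Genes of neutrophils and of the choroid plexus headed the lower side by size, and few cells held them. S100a8 stood at 7.23, 15.6, 8.39 and 1.86 CPM in positive cells and at 45.8, 42.5, 1439 and 550.8 CPM in paired cells of naive 1, naive 2, HI 1 and HI 2. In HI 1, 5 of the paired cells held 90.0% of its 7890 UMIs. Ttr, the thyroxine carrier of the choroid plexus, stood at 324.6 and 125.2 CPM in paired naive cells, where 5 cells held 96.7% and 94.3% of its UMIs, and at 11.2 and 6.47 CPM in naive positive cells. In the HI libraries both classes were near 3 CPM. S100a9, Gm5483, BC100530, Stfa1, Stfa2, Stfa2l1, 2010005H15Rik and Hp were lower in 4 of 4 libraries too. With the highest 1% of cells removed, Ttr lost its call and the others but Hp were too low to test; Ccr2, Hp and F11r, a junction protein, stayed called. High doublet scores were given to 2.78% to 4.78% of positive cells and to 5.56% to 11.8% of the paired cells. Without those cells 1448 genes were called between the classes, and 22 of the 24 genes with the largest differences stayed called, Stfa2 and BC100530 being lost.

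HI was then compared with naive within the Timd4 positive cells. After HI they held more RNA of the nuclear lamina gene Lmna, the growth regulator Myc, the metallothionein gene Mt1 and the membrane genes Ms4a6d and Ms4a4a, and less of the prostaglandin-degrading enzyme gene Hpgd and of Gimap6. Of 10912 genes tested, 42 were called by edgeR (0.385%), 31 higher (0.284%) and 11 lower (0.101%), and 1393 had an unadjusted p under 0.05. In all 42 the 2 HI libraries lay beyond the 2 naive ones. A call from so few libraries favours such genes, and their share among all tested genes was not counted, so this is no separate support. The median log2 change over all tested genes was 0.0003.

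Lmna stood at 55.6 and 68.2 CPM in naive and at 140.4 and 202.0 CPM in HI libraries, a log2 change of 1.48 ± 0.173 (edgeR adjusted p = 0.0158). Myc went from 20.4 and 25.5 to 50.3 and 46.4 CPM, and S100a10, a partner of annexin A2, from 91.1 and 110.6 to 197.1 and 209.5 CPM. Mt1, which binds zinc and is induced by metals and glucocorticoids, went from 666.2 and 552.8 to 1133 and 1124 CPM (log2 change 0.90 ± 0.0897, edgeR adjusted p = 0.0110). In none of these genes did a naive library reach an HI library, as the rule for naming them required.

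Ms4a6d went from 362.4 and 408.5 to 689.6 and 730.7 CPM, and Ms4a4a, like it a membrane gene of macrophages, from 361.1 and 364.7 to 640.9 and 675.6 CPM. The fold was 1.86 for the first and 1.83 for the second (edgeR adjusted p = 0.00609 and 0.00408). Knop1, Syngr2, Lifr and Sult1a1 rose by 0.84 to 0.90 on the log2 scale. Hpgd went down from 556.1 and 529.0 to 347.8 and 314.3 CPM (log2 change -0.70 ± 0.0718, edgeR adjusted p = 0.0110), and Gimap6 from 48.6 and 42.4 to 23.5 and 21.5 CPM. Hgsnat, a lysosomal enzyme gene, fell less, from 987.4 and 1083 to 705.1 and 762.7 CPM, and Limd2 and Bri3 also fell. The calls of Hgsnat, Limd2 and Bri3 were lost without naive 1, naive 2 or HI 1, with the direction kept. With at least 3 Timd4 UMIs, Gimap6 missed the threshold (edgeR adjusted p = 0.0626).

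**Figure D4:**
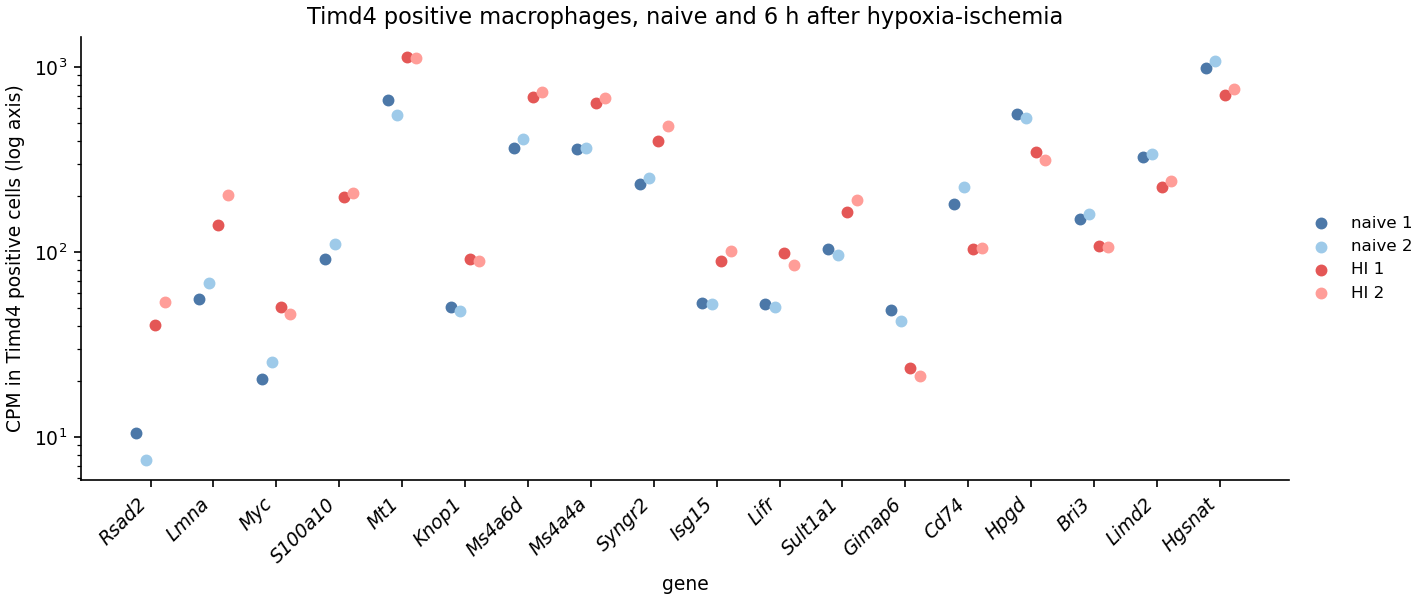
Points give the level in CPM (log axis) of 18 called genes in Timd4 positive cells, 1 point per library, with naive in blue and HI in red. Both HI points lie above both naive points from Rsad2 to Sult1a1 and below them from Gimap6 to Hgsnat.

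Rsad2 and Isg15, targets of type I interferon, were called higher on the RNA of few cells. Rsad2, which encodes the antiviral enzyme viperin, went from 10.4 and 7.52 to 40.1 and 53.7 CPM (log2 change 2.39 ± 0.197, edgeR adjusted p = 0.00604). In the HI libraries, 5 cells held 81.4% and 83.8% of its UMIs, against 29.7% and 35.9% in naive libraries. Isg15, a ubiquitin-like protein, went from 53.3 and 52.5 to 89.7 and 101.5 CPM, with 42.7% and 44.9% of the HI UMIs in 5 cells. With the highest 1% of cells removed neither passed: the log2 change was 0.87 for Rsad2 (edgeR adjusted p = 0.214) and 0.50 for Isg15 (edgeR adjusted p = 0.0834).

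MHC class II genes were called lower, and few naive cells held them. H2-Aa had 302 and 301 UMIs in naive positive cells and 1 and 0 in HI positive cells (edgeR adjusted p = 1.786e-04). Of the 302 UMIs, 298 sat in 1 cell, and of the 301, 294 sat in 4 cells. In naive libraries 5 cells held 98.1% and 99.5% of the UMIs of H2-Ab1, and all and 98.0% of those of H2-Eb1. Cd74 went from 180.4 and 224.9 to 103.9 and 104.6 CPM, with 54.6% and 60.7% of the naive UMIs in 5 cells. The change of Cd74 was -0.95 on the log2 scale (edgeR adjusted p = 0.0152). Leaving out the highest 1% of cells gave 0.19 (edgeR adjusted p = 0.299), and leaving out cells of high doublet score gave -0.49 (edgeR adjusted p = 0.370).

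**Figure D5:**
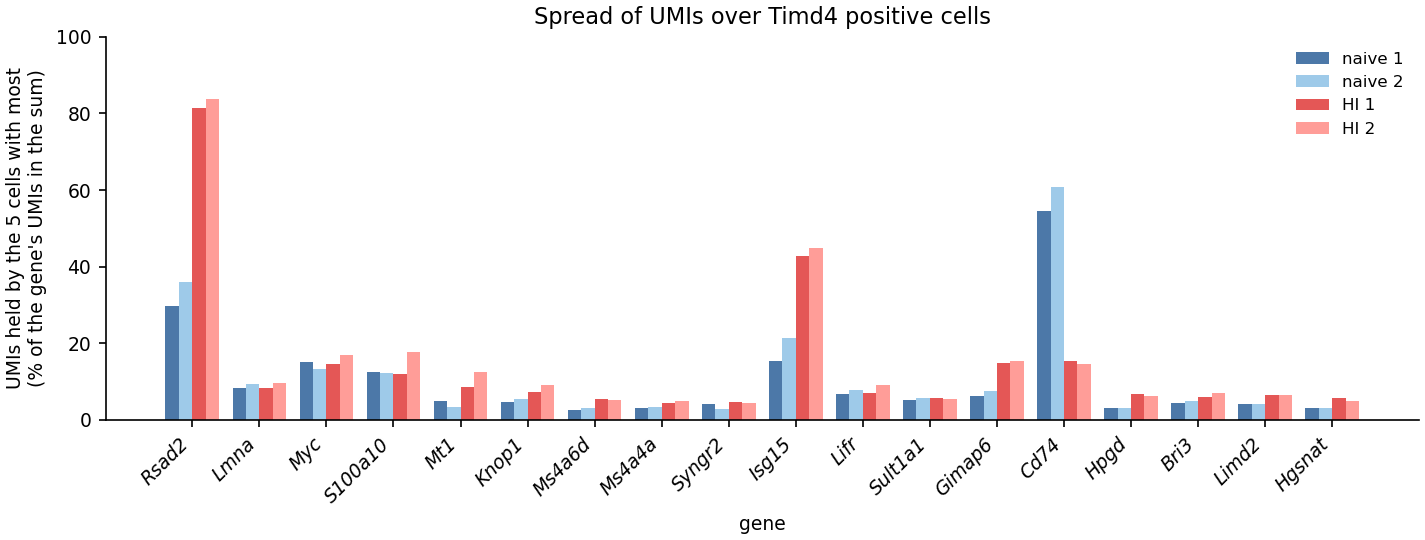
Bars give the percentage of a gene's UMIs in Timd4 positive cells that the 5 cells with most of them held, for each library and for the 18 genes named by the rule. Rsad2 and Isg15 in HI libraries and Cd74 in naive libraries stand above the rest, at up to 83.8%, 44.9% and 60.7%.

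Few members of the pathway lists passed in the positive cells, where 0.385% of all tested genes were called. At that share a list of this length would seldom hold a call, so a count of 0 is no result about a list. Of 22 hypoxia and glycolysis genes 1 rose, the glycolytic mutase gene Pgam1, from 161.4 and 166.7 to 257.0 and 286.6 CPM, and the list's median log2 change was 0.35. Of 13 glucocorticoid response genes Mt1 and Hif3a rose and the median was 0.21; Hif3a, an inhibitory HIF subunit, went from 5.97 and 7.29 to 20.1 and 28.5 CPM. Of 17 unfolded protein response genes Sdf2l1 alone rose, from 175.7 and 188.3 to 255.2 and 282.1 CPM, with a median of 0.26. Socs3 was the only one of 21 inflammatory genes to pass, and the clock gene Cry1 the only one of 14 clock genes. The call of Socs3 was lost with the highest 1% of cells removed (edgeR adjusted p = 0.316), with at least 3 Timd4 UMIs (0.181) and without naive 1, naive 2 or HI 1 (0.117 to 0.193), and 5 cells held 77.6% of its UMIs in HI 1. With at least 3 Timd4 UMIs, Sdf2l1 and Cry1 also missed the threshold (edgeR adjusted p = 0.0505 for each). Msr1, a scavenger receptor gene, rose from 93.2 and 91.2 to 132.7 and 128.8 CPM. The calls of Pgam1, Sdf2l1, Cry1 and Msr1 were also lost without naive 1 and without naive 2, and that of Hif3a without naive 1. Their direction was kept. Of 25 cell cycle genes 0 passed and the median was -0.21. None of the 24 apoptotic cell uptake genes or 24 lipid transport genes passed.

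The chosen markers did not pass the test for HI within the positive cells. Folr2 stood at 1158 and 1032 CPM in naive and 1073 and 1054 CPM in HI libraries, a log2 change of -0.03 ± 0.0702 (edgeR adjusted p = 0.902). Slc9a3r2 stood at 50.5 and 58.5 against 51.0 and 64.0 CPM, and Pltp at 565.1 and 500.0 against 519.3 and 480.2 CPM.

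The number of HI calls depended on the libraries. Without naive 1, 11 genes were called and 3 of the 18 named genes kept their call, and without HI 2, 165 were called; with each gene's highest 1% of cells removed, 71 were called, 34 of them among the 42.

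Timd4 0 cells gave more calls, 685 of 13073 tested (5.24%, 2.91% higher and 2.33% lower), and 303 when limited to the paired cells. Without naive 2 the order turned, with 32 calls in Timd4 0 and 37 in positive cells. Among the 685 were 13 of 24 hypoxia and glycolysis genes and 12 of 17 unfolded protein response genes, all higher. The change itself was compared between the 2 classes in 1 fit. Of 11366 genes tested, 48 differed (0.422%), 7 with a change after HI that was higher in positive cells (0.0616%) and 41 lower (0.361%). Without cells of high doublet score 6 were called. In this fit 0 of 23 hypoxia and glycolysis genes, 0 of 17 unfolded protein response genes and 0 of 25 cell cycle genes were called. With 0.422% of all tested genes called, lists this short would seldom hold a call, so these counts are no result about the lists.

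With each gene's highest 1% of cells removed, 10 genes were called, all with a lower change in positive cells, and they are named for that reason after their values were seen. Ifitm2, of the same antiviral family as Ifitm3, stood at 1547, 1447, 1993 and 2085 CPM in positive cells of naive 1, naive 2, HI 1 and HI 2. In paired cells it stood at 668.2, 652.5, 1263 and 1289 CPM, so the gap between the classes was narrower in both HI libraries. The difference in log2 change was -0.50 ± 0.0597 (edgeR adjusted p = 8.486e-04), and it stayed called without high doublet scores (edgeR adjusted p = 0.0205).

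Pirb, an inhibitory receptor gene, stood at 84.9, 79.2, 86.2 and 80.1 CPM in positive cells and at 33.8, 33.7, 60.6 and 57.4 CPM in paired cells of naive 1, naive 2, HI 1 and HI 2. The positive cells thus stayed at 1 level while the paired cells were higher in both HI libraries (difference -0.79 ± 0.104, edgeR adjusted p = 0.00252; 0.0568 without high doublet scores). Lilrb4a, another inhibitory receptor gene, went from 129.3 and 113.0 to 133.8 and 116.6 CPM in positive and from 71.5 and 52.5 to 112.0 and 84.2 CPM in paired cells. C5ar1, the receptor of complement C5a, was at 504.4 and 560.9 against 564.3 and 660.6 CPM in positive and at 360.7 and 361.1 against 556.8 and 559.7 CPM in paired cells. Crip1, Ccl9, Vim, Il4ra and Clec4n had differences of -0.37 to -0.65 (edgeR adjusted p of 0.0111 to 0.0308). Without high doublet scores Lilrb4a, C5ar1, Crip1, Ccl9, Vim, Il4ra and Clec4n all lost their calls (edgeR adjusted p of 0.113 to 0.190) with the direction kept. Wfdc17 was the tenth, and with all cells in the sums it did not pass (-0.80, edgeR adjusted p = 0.192). Of these 10, Il4ra and Clec4n were lower in positive than in paired cells and the others higher.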

How the data were processed

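Gene expression was measured in 4 libraries of pooled mouse meninges (2 naive, 2 HI), and B-cell and T-cell receptor libraries were used for contigs per barcode. The authors deposited raw UMI counts as whole numbers, in a separate matrix for every library. The tools named per the submitters' processing notes are Cell Ranger 2.2.0 and Seurat, with the builds mm10 and GRCm38. Receptor contig counts are as deposited. Of 28694 gene rows, 28341 IDs matched the gene table.

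A barcode was kept if it had 200 genes or more and a mitochondrial share of no more than 10%. Counts were summed per library and class, and edgeR 4.0.16 gave quasi-likelihood tests (R 4.3.3; filterByExpr, TMM, 2-sided, Benjamini-Hochberg at 0.05 over all tested genes). Positive and Timd4 0 cells were matched within 10% of total UMIs, with a library term. CPM are of these sums, and standard errors are of the fitted log2 values. Alternatives were DESeq2 1.42.0, RLE factors, no filter, other thresholds, removal of the highest Scrublet scores (scanpy 1.11.5; 0.8% per 1000 barcodes, 964 cells, as the automatic call marked 6), each library left out and, added after seeing the data, sums without each gene's highest 1% of cells. In simulated data 100 genes were changed 2-fold and another 100 were changed 4-fold. Of the 2-fold genes, 73% were recovered for HI within positive cells, 90% between classes and 67% for the difference of responses. False calls numbered 1, 14 and 7. The simulated spread followed the expression level alone, without RNA held by few cells, so recovery in the real sums may be lower.

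Genes named for HI passed 0.05 with at least 20 CPM and no overlap of groups (up to 12 each way). Between classes the rule asked for at least 20 CPM in the higher class and the same direction in 4 of 4 libraries. The threshold and the cap were the same, and the groups could overlap. For the difference of responses it asked for 0.05 and at least 20 CPM (up to 6 each way), with no rule on overlap. Further ones were up to 4 members of a list with the smallest adjusted p, fixed markers, or genes named after their values were seen. Members, markers and gene lists were chosen with earlier results of these data known. Intervals and limits cover counting error only.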

Additional observations from a re-analysis of the deposited data

Results flagged for a closer look

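In Timd4 positive cells the change after HI differed from that in depth-matched Timd4 0 cells by the edgeR test of the difference itself for 28 of the genes named here. Values are the log2 change in positive cells minus that in paired cells.

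It was higher in positive cells for the choroid plexus gene Ttr (4.48), Rsad2 (2.25), Ptn (0.77) and Isg15 (0.72). It was lower for the neutrophil genes Stfa2 (-9.01), Stfa2l1 (-7.82), Stfa1 (-7.41), Gm5483 (-6.06), S100a9 (-5.67), S100a8 (-5.62) and BC100530 (-5.24). It was also lower for H2-Aa (-6.24), H2-Eb1 (-4.39), H2-Ab1 (-3.03), Ccr2 (-2.56), Anxa1 (-1.04) and S100a6 (-0.86). For genes with 0 or few UMIs in a class these fitted values depend on the prior count and are no measure of fold. With each gene's highest 1% of cells removed, none of the genes of this paragraph was called.

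Smaller differences were Pirb (-0.79), Ccl9 (-0.65), Lilrb4a (-0.62), Crip1 (-0.55), Ifitm2 (-0.50), Ccl2 (-0.44), C5ar1 (-0.43), Il4ra (-0.42), Cd14 (-0.42), Vim (-0.42) and Clec4n (-0.37). Of these, all but Ccl2 and Cd14 were called with the highest 1% of cells removed too. Without cells of high doublet score, Ifitm2 alone among these 11 stayed called (edgeR adjusted p = 0.0205), and the others ranged from 0.0568 for Pirb to 0.921 for Cd14.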

How the results depend on the processing

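Genes called by edgeR for HI in positive cells numbered 42; DESeq2 gave 89, and leaving out 1 library gave 11 to 165. A replicate block on the library numbers gave 413; same-numbered libraries deviated together with r = 0.17 in positive cells and -0.06 in all macrophages, over 2 pairs whose numbers the labels do not tie to runs. The highest 1% of cells removed, a setting added after seeing the data, gave 71. Between positive and Timd4 0 cells 1519 were called, against 603 with DESeq2, 3195 with all Timd4 0 cells and 996 to 1256 with 1 library left out. The difference of responses had 48 calls, against 12 without the filter, 13 with DESeq2, 16 with at least 3 Timd4 UMIs, 6 without high doublet scores, 10 with the highest 1% removed and 39 to 115 with 1 library left out. All macrophages had 428 calls for HI, against 1372 without the filter, 838 with DESeq2, 1444 with the replicate block and 0 to 1164 with 1 library left out (0 without naive 1 and without naive 2). Timd4 0 cells had 685, against 1880 with the block, 303 with paired cells and 32 to 1479. The difference in share ran from -7.55 to -3.39 points with 1 library left out.

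Direction reversed for HI in positive cells with 1 library left out in Folr2 (-0.114 to 0.0550), Pltp (-0.168 to 0.0104) and Slc9a3r2 (-0.0905 to 0.249), and in Cd74 (0.19) without the highest 1%. Between classes it reversed for Ccl4 (0.0894) and Lgals3 (0.0080) with all Timd4 0 cells and for Lgals3 (0.0398) with at least 3 Timd4 UMIs, and in the difference of responses for H2-Ab1 (0.68) with at least 3. The cause was not tested.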
